A study of Mus musculus with 6 samples.

Results

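STAT transcription factors (signal transducers and activators of transcription) were followed in cultured bone marrow cells of mice with aGVHD (acute graft-versus-host disease, an attack of a transplant's immune cells on its host). The members described here were taken by gene identifier from a table of 49328 genes through the mouse annotation (GENCODE M21, build GRCm38): Stat2, Stat3, Stat4, Stat5a, Stat5b and Stat6, that is 6 genes, of which 5 were high enough to be tested. There were 3 libraries of cells that received R, a compound named only by this letter, at 0.5 um (unit as in the labels), and 3 libraries of cells that received DMSO, the vehicle. The labels name the cells of all 6 libraries mesenchymal stromal cells (MSCs). They came from CB6F1 mice, an F1 hybrid strain, and were obtained by digesting unfractionated marrow. They were kept in DMEM of high glucose to which serum, penicillin and streptomycin were added. Not given in the sources used here are the animals' ages, what R is and how long it was applied.

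A STAT protein rests in the cytoplasm until a cytokine receptor and its Janus kinase (JAK) phosphorylate it on a tyrosine. It then pairs with another STAT, enters the nucleus and switches on target genes, among them SOCS genes whose products shut the receptor down. Some STAT genes are themselves targets of the pathway they serve, so that cytokine exposure raises their own transcripts, while others are held at a steady level. Stat2 is a known interferon-induced gene, and Stat3 is known to be raised by STAT3 itself. STAT2 acts with IRF9 in the interferon-activated complex ISGF3, STAT3 serves the IL-6 family and IL-10, STAT4 serves IL-12 in T and NK cells, STAT5A and STAT5B serve GM-CSF, growth hormone, prolactin and the common gamma-chain cytokines, and STAT6 serves IL-4 and IL-13.

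Levels are given as the authors' FPKM, fragments per kilobase of a gene's length adjusted for library size, at an estimated depth of 17070000 to 21750000 reads per library. Changes are R minus vehicle on the scale of log2(FPKM + 1), with a moderated standard error (SE), tested with limma across 11862 kept genes, and called at a Benjamini-Hochberg adjusted p under 0.05. By that rule 6.82% of the kept genes were called, 4.43% lower and 2.39% higher in R. The 3 values of one group all lay on one side of the other group's in 29.3% of kept genes, with R below in 15.5% and above in 13.9%. Whether replicates came from separate mice or dishes is not said in the labels, and p-values then describe only how far these libraries spread, which may be technical. Macrophage transcripts were abundant in both groups, so MSC is used here only as the labels' word. Lyz2 averaged 9450 FPKM in R and 11100 FPKM in vehicle, and Csf1r 401 FPKM in R and 494 FPKM in vehicle. The summed FPKM of 14 macrophage and monocyte markers was 12400 to 15400 in R and 14900 to 19900 in vehicle, and 4 of the 14 fell in R while 0 rose. The summed FPKM of 13 MSC markers was 831 to 1150 in R and 715 to 945 in vehicle, and of the 10 that were kept 1 fell and 0 rose. Ly6a, the one that fell, was at 23 ± 9.17 FPKM in R and 141 ± 59.3 FPKM in vehicle (SD, n = 3 each; limma, adjusted p = 0.015). Col1a1, Itgb1, Pdgfrb and Mcam lay above vehicle in every R library without passing, with Col1a1 at 479 ± 136 FPKM in R and 214 ± 75.7 FPKM in vehicle (SD, n = 3 each). The 3 under the filter were low: Lepr averaged 0.112 FPKM in R and 0.115 FPKM in vehicle, Thy1 0.215 FPKM in R and 1.04 FPKM in vehicle, and Nt5e 0.449 FPKM in R and 0.384 FPKM in vehicle. In such bulk libraries, fewer cells of a type and less RNA per cell cannot be told apart.

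Stat2, Stat3 and Stat5a fell in R, by unlike amounts, and Stat5b and Stat6 did not pass the test. The mean FPKM in R was 0.25 of that in vehicle for Stat2, 0.558 for Stat3 and 0.713 for Stat5a. Stat4 was near the limit of detection in each of the 6 libraries. So 3 of the 5 kept STAT genes were called, all lower in R, beside 4.43% of all kept genes.

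**Figure D1:**
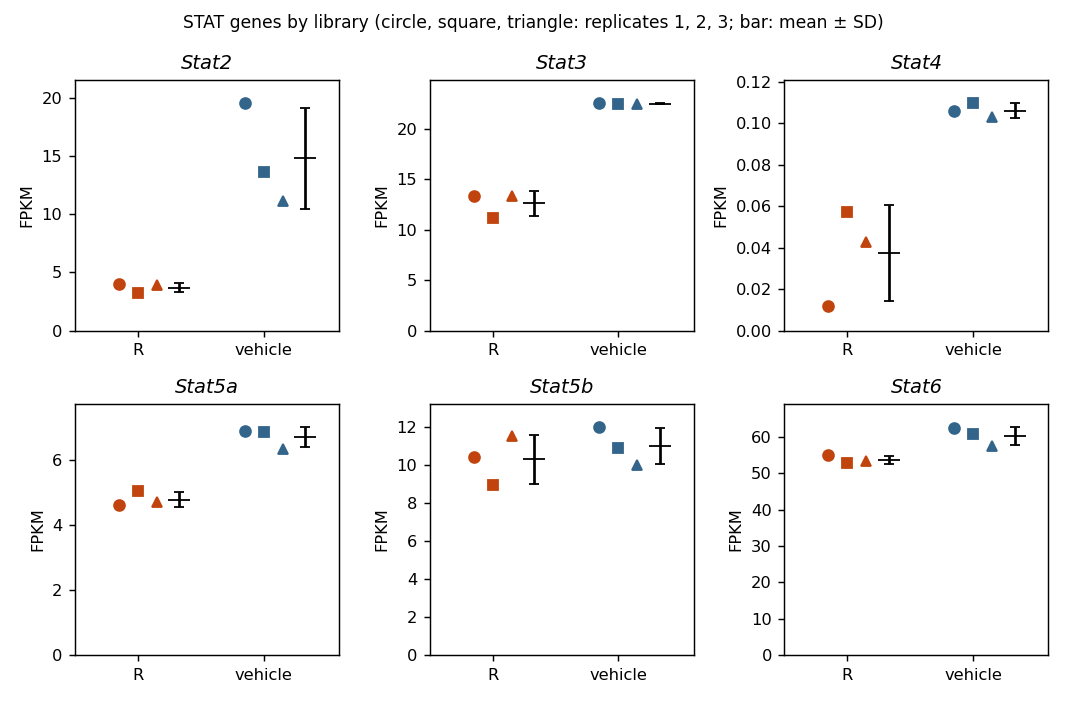
FPKM of the 6 STAT genes in each library, R left of vehicle, with each axis from 0; circles, squares and triangles are replicates 1, 2 and 3 and the black bars are mean ± SD (n = 3). The groups are furthest apart for Stat2 (3.23 to 3.97 in R, 11.1 to 19.6 in vehicle) and overlap for Stat5b.

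Stat2 (chromosome 10, 128270559 to 128292849, plus strand, GRCm38) had 3.97, 3.23 and 3.88 FPKM in R replicates 1, 2 and 3, against 19.6, 13.6 and 11.1 FPKM in vehicle replicates 1, 2 and 3. Every R library lay below every vehicle library, and the vehicle libraries were spread more widely than those of any other kept STAT gene, with a coefficient of variation of 29.6% against 11% in R. The means were 3.69 ± 0.405 FPKM in R and 14.8 ± 4.36 FPKM in vehicle (SD, n = 3 each), which stand for 344 to 512 estimated reads in R and 1311 to 1979 in vehicle. The log2 change was -1.72 (SE 0.19, 95% interval -2.17 to -1.26; limma, adjusted p = 0.0034), lower than that of all but 0.91% of kept genes. Without vehicle replicate 1, the highest library, it was -1.51 and stayed past the threshold. The vehicle library with the most Stat2 also had the highest summed macrophage markers (19900 in vehicle replicate 1, against 16500 and 14900 in replicates 2 and 3); the part of these cells in the change was not tested.

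The Stat2 promoter is shown because it holds the motif letters that interferon-responsive promoters share. Each sequence below is the 250 bases before the RefSeq start site (GRCm38.p6), 5′ to 3′ on the gene's strand, with capitals on every match found. The motifs searched on both strands were the interferon-stimulated response element core (GAAANNGAAA, read TTTCNNTTTC on the other strand), its variants with 1 base fewer (GAAANGAAA) or 1 more (GAAANNNGAAA) between the repeats, and the STAT-binding GAS forms TTCNNNGAA and TTCNNNNGAA. The Stat2 window (chr10:128270248-128270497) is followed by those of Stat3 (chr11:100939541-100939790, minus strand), which also fell, and Stat6 (chr10:127642736-127642985), which did not pass.
Stat2: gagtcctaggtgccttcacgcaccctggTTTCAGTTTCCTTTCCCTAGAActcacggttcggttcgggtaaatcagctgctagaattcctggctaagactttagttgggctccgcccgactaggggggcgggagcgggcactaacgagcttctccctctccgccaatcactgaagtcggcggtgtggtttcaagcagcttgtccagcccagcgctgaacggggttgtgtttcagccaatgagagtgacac
Stat3: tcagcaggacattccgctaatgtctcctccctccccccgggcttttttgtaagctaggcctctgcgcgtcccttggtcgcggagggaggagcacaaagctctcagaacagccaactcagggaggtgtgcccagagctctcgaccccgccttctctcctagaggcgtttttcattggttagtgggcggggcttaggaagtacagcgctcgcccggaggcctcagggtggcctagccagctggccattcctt
Stat6: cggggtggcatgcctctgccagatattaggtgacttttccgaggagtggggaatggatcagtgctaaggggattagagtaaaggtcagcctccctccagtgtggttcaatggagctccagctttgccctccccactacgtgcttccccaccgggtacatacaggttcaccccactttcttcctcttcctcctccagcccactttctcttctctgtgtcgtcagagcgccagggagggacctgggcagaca
In Stat2 the capitals cover 3 overlapping matches: TTTCAGTTTC from -222 to -213, TTTCCTTTC from -216 to -208 and TTCCCTAGAA from -210 to -201, counted from the start site. Among 32851 promoter windows of the same length, the GAAANNGAAA form was present in 2.98%, GAAANGAAA in 2.68%, GAAANNNGAAA in 2.38%, TTCNNNNGAA in 5.85% and TTCNNNGAA in 7.02%. No match to any of the 5 forms was found in the windows of Stat3, Stat6, either start of Stat5a or either start of Stat5b. The second annotated start of Stat4 had 1 match, GAAAGTGAAA, from -97 to -88. A match is a description of letters and does not show that a factor binds there.

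Stat3 (chromosome 11, 100885098 to 100939540, minus strand) had 13.3, 11.2 and 13.3 FPKM in R, against 22.6, 22.5 and 22.5 FPKM in vehicle. Every R library lay below the vehicle libraries, which agreed to within a coefficient of variation of 0.415%, the smallest among the kept STAT genes. The vehicle values stand for 3682 to 4281 estimated reads, whose counting error is larger than that spread. So close an agreement is no measure of how precise the values are. The means were 12.6 ± 1.2 FPKM in R and 22.5 ± 0.0935 FPKM in vehicle (SD, n = 3 each). The log2 change was -0.80 (SE 0.09, 95% interval -1.01 to -0.59; limma, adjusted p = 0.0036), and only 3.14% of kept genes had a change this low or lower. The calls of Stat2 and Stat3 held in each of the 16 alternative analyses, with limma's adjusted p up to 0.023 for each.

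Stat5a (chromosome 11, 100859351 to 100885169, plus strand) had 4.6, 5.03 and 4.71 FPKM in R, against 6.9, 6.87 and 6.35 FPKM in vehicle. The groups did not overlap, with means of 4.78 ± 0.221 FPKM in R and 6.71 ± 0.306 FPKM in vehicle (SD, n = 3 each). The fall of 0.42 on the log2 scale (SE 0.09; limma, adjusted p = 0.034) was close to the threshold. Its call ended when any library but vehicle replicate 3 was left out (limma, adjusted p from 0.06 to 0.14) and without a filter on low values (0.077), and the change was -0.26 with a pseudocount of 5.

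Stat5b (chromosome 11, 100780731 to 100850724, minus strand), the close paralog beside it, had 10.4, 8.93 and 11.5 FPKM in R, against 12, 10.9 and 10 FPKM in vehicle. The groups overlapped, with means of 10.3 ± 1.29 FPKM in R and 11 ± 0.967 FPKM in vehicle (SD, n = 3 each). The log2 change was -0.09 (95% interval -0.36 to 0.18; limma, adjusted p = 0.69). The log2 ratio of Stat5a to Stat5b, of FPKM + 1, averaged -0.96 ± 0.21 in R and -0.63 ± 0.07 in vehicle (SD, n = 3 each), and the groups did not overlap.

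Stat5a and Stat5b are partly interchangeable to a read counter, and the stretch below shows how closely. Their longest coding sequences (GENCODE M21) were identical at 90.7% of 2294 aligned bases, against 58.3% to 65.3% for the other 14 pairs of members. The longest identical run was 324 bases, from coding base 571 to 894 in both genes. The lines give coding bases 835 to 954 of each gene, across the end of that run, with a capital at the position where they differ.
Stat5a: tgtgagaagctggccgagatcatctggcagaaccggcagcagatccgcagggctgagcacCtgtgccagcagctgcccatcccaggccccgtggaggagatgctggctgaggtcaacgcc
Stat5b: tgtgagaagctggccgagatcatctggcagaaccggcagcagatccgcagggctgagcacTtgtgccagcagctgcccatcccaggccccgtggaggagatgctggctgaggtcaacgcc
These 120 bases differ at 1 position. Over all annotated transcripts, 8.21% of the 50-base words of Stat5a also occurred in Stat5b, and 11% of those of Stat5b in Stat5a. No such word was shared by any other pair of members when read on the transcript strand. Words on opposite strands were not compared, and Stat3 and Stat5a overlap by 72 bases on opposite strands. How the authors' counting treated reads that match both genes is not stated in the labels, so the separate values of Stat5a and Stat5b carry that uncertainty.

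Stat6 (chromosome 10, 127642986 to 127660957, plus strand) was the most abundant member, with 55.1, 53.0 and 53.5 FPKM in R, against 62.6, 60.8 and 57.6 FPKM in vehicle. The 3 R libraries lay below the 3 vehicle libraries, but the difference did not pass after adjustment. The log2 change was -0.16 (SE 0.08, 95% interval -0.34 to 0.02; limma, adjusted p = 0.26). Stat6 did not pass in any of the 16 alternatives, where the change ran from -0.19 to -0.12.

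Stat4 (chromosome 1, 51987148 to 52107189, plus strand) had 0.0119, 0.0574 and 0.0429 FPKM in R, against 0.106, 0.11 and 0.103 FPKM in vehicle. These values stand for 1, 4 and 3 estimated reads in R and 7, 8 and 8 reads in vehicle, so counting error is large. The groups did not overlap, but Stat4 was below the filter, and without a filter it did not pass (limma, adjusted p = 0.21). Markers of T and NK cells, which use STAT4, were also low. Of the 15, 3 were kept and 1 fell, Nkg7, a granule protein of cytotoxic cells, at 0.142 ± 0.126 FPKM in R and 2.22 ± 0.77 FPKM in vehicle (SD, n = 3 each). Nkg7 was under 1 FPKM in each R library and kept only through vehicle, so its direction is partly fixed by the filter. The summed FPKM of the 15 markers was 3.28 to 8.37 in R and 9.18 to 16.7 in vehicle. For 8 of the 15 each R library lay below each vehicle library, beside 15.5% of all kept genes. Most of the 15 were under the filter, so that share is of an unlike set of genes. Cd4 was above, and Ncr1 and Klrb1c, defining receptors of NK cells, were listed at 0 in all 6 libraries. Their part in the Stat4 values was not tested.

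The order of the members by level changed with treatment. In R it ran Stat6, Stat3, Stat5b, Stat5a, Stat2 and Stat4, and in vehicle Stat6, Stat3, Stat2, Stat5b, Stat5a and Stat4, by mean FPKM, which is a level per length of gene. Stat2 was below Stat5b in each R library and above it in each vehicle library. The ratio of Stat2 to Stat5b FPKM was 0.383, 0.361 and 0.337 in R and 1.64, 1.25 and 1.1 in vehicle. Neighbours in the order whose ranges overlapped were Stat3 and Stat5b in R (11.2 to 13.3 and 8.93 to 11.5 FPKM) and Stat2 and Stat5b in vehicle (11.1 to 19.6 and 10 to 12 FPKM). The summed FPKM of the 6 genes was 81.4 to 87.3 in R and 108 to 124 in vehicle.

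Within that sum the make-up shifted toward Stat6. Stat6 made up 63.2% ± 1.75 of it in R and 52.3% ± 1.56 in vehicle, and Stat5b 12% ± 1.14 in R and 9.49% ± 0.17 in vehicle (SD, n = 3 each). Stat2 made up 4.33% ± 0.315 in R and 12.7% ± 2.85 in vehicle, and Stat3 14.7% ± 0.86 in R and 19.6% ± 1.29 in vehicle. For these 4 genes and for Stat4 the shares of the groups did not overlap, while those of Stat5a did (5.27% to 6.18% in R, 5.57% to 5.98% in vehicle). Shares add up to a whole, so the higher share of Stat6 goes with a level of Stat6 that was not higher in R.

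**Figure D2:**
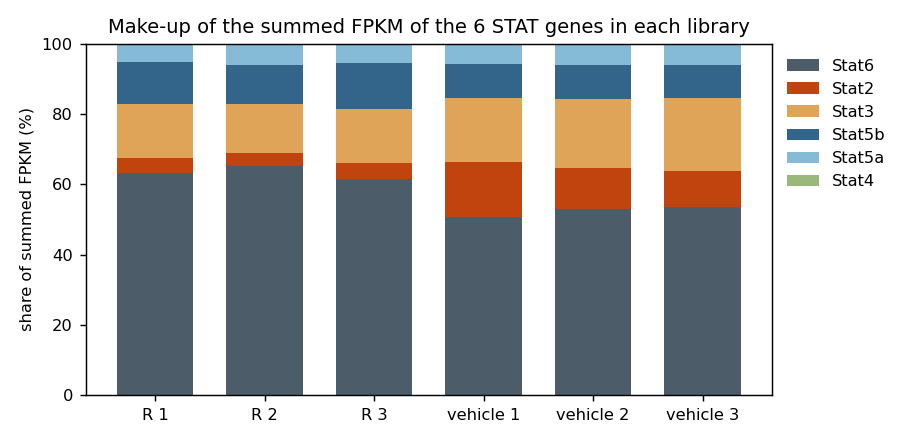
Share of the summed FPKM of the 6 STAT genes, in percent, held by each gene in each library, R left of vehicle. Stat2 holds 3.97% to 4.55% in R and 10.3% to 15.8% in vehicle, and Stat6 61.6% to 65.1% in R and 50.6% to 53.5% in vehicle; Stat4 is too small to be seen.

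The members were then compared with each other, as the change in the log2 ratio of 2 members, R minus vehicle. Of the 10 pairs among the 5 kept members, 9 had log2 ratios that did not overlap between the groups. The pairs share members, so these are not 9 separate results. How often pairs of all kept genes do so was not counted, while single kept genes did not overlap in 29.3%. The exact two-sided permutation test gave p = 0.1 for each of the 9, which is the smallest p that 3 against 3 libraries allow (adjusted p = 0.111 over the 10 pairs), so no pair could pass 0.05. The change of Stat2 minus that of Stat3 was -0.92, and Stat2 minus Stat5a, Stat6 and Stat5b gave -1.3, -1.56 and -1.63. Stat2 and Stat3, the members known to be induced by their own pathways, had the lowest changes of the 5. The part of that induction in the changes was not tested, and Stat5a was also called lower. Stat3 minus Stat5a was -0.38, Stat3 minus Stat6 -0.64 and Stat3 minus Stat5b -0.71, while Stat5a minus Stat5b was -0.33 and Stat5a minus Stat6 -0.25. For Stat5b minus Stat6, the members that did not pass, the difference was 0.07 and the ratios overlapped (exact permutation p = 0.7). With a pseudocount of 5 Stat2 minus Stat3 was -0.51, Stat2 minus Stat6 -1.01, Stat5a minus Stat5b -0.19 and Stat5a minus Stat6 -0.11.

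The pathway around the STAT genes was described with 14 lists of genes, 137 in all, of which 102 were kept. Of these 31 fell and 1 rose. Of 57 kept receptors, kinases, partners and restraints, 11 fell and 0 rose. Of those 11, Usp18, Socs3, Osmr and Il4ra also stand in a list of STAT targets; of the 51 kept genes in no target list, 7 fell and 0 rose. Among all kept genes 4.43% were called lower and 2.39% higher in R, and the median change was 0. The counts given below for each list stand beside these same shares. Some listed genes, Il12rb1 and Usp18 among them, were under 1 FPKM in each R library and kept only through vehicle. The counts that include them are partly fixed by the filter.

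Of the 4 JAK kinases, which phosphorylate STAT proteins, 1 passed limma's adjusted threshold and 3 had an unadjusted p under 0.05. Tyk2, with the largest p of these 3, ranked 2846 by p among the 11862 kept genes. An unadjusted p under 0.05 was thus common among all kept genes. Jak3, the partner of the common gamma chain, was called lower, at 3.75 ± 0.196 FPKM in R and 5.87 ± 0.923 FPKM in vehicle (SD, n = 3 each; log2 change -0.53; limma, adjusted p = 0.047), and its call ended in 10 of the 15 alternatives that kept it, among them the omission of any R library or of vehicle replicate 1 or 2 (limma, adjusted p up to 0.16). The changes of Jak1, Tyk2 and Jak2 were -0.35, -0.31 and -0.27 and did not pass. The list median was -0.33.

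Irf9, the DNA-binding partner of STAT2, fell beside it. It had 2.4, 2.35 and 2.47 FPKM in R, against 13.3, 12.2 and 10.3 FPKM in vehicle (log2 change -1.92, SE 0.11; limma, adjusted p = 0.00024). The ratio of Stat2 to Irf9 FPKM was 1.66, 1.37 and 1.57 in R and 1.48, 1.12 and 1.08 in vehicle, with overlapping groups. The receptor chains of interferon that were kept did not pass, with changes of -0.26 for Ifnar2, -0.16 for Ifnar1, -0.18 for Ifngr1 and 0.05 for Ifngr2. Nmi, a STAT-interacting protein that interferon induces, was the 1 of 8 partners and coactivators that fell, at 2.88 ± 0.185 FPKM in R and 8.27 ± 0.773 FPKM in vehicle (SD, n = 3 each).

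Among receptor chains grouped by the STAT they mainly use, at least 1 of each group fell. For STAT3, 1 of 7 kept chains fell, the oncostatin M receptor Osmr, at 0.938 ± 0.191 FPKM in R and 3.63 ± 0.458 FPKM in vehicle (SD, n = 3 each). The common chain Il6st, through which the IL-6 family signals, had a change of -0.34, and Csf3r and Il11ra1 of -0.58 and 0.19, and these did not pass. For STAT4, 1 of 2 kept chains fell, Il12rb1, with 0.28, 0.393 and 0.445 FPKM in R, against 6.55, 4.54 and 3.19 FPKM in vehicle (log2 change -2.03; limma, adjusted p = 0.0026). Il12rb2, the other IL-12 receptor chain, had a change of -0.46 and did not pass. Both chains were under 1 FPKM in each R library and passed the filter only through vehicle. Their direction is therefore partly fixed by the filter. For STAT5, 1 of 9 kept chains fell, the common gamma chain Il2rg, at 13.8 ± 1.2 FPKM in R and 34.9 ± 8.57 FPKM in vehicle (SD, n = 3 each), while Il3ra, Il15ra and Ghr had changes of -0.54, -0.44 and 0.63 without passing. For STAT6, both kept chains fell. Il13ra1 was at 3.56 ± 0.714 FPKM in R and 10.1 ± 1.28 FPKM in vehicle, and Il4ra at 23.1 ± 3.02 FPKM in R and 36.2 ± 5.79 FPKM in vehicle (SD, n = 3 each; limma, adjusted p = 0.0036 and 0.047). The call of Il4ra ended when any R library or vehicle replicate 1 or 2 was left out (limma, adjusted p up to 0.14).

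**Figure D3:**
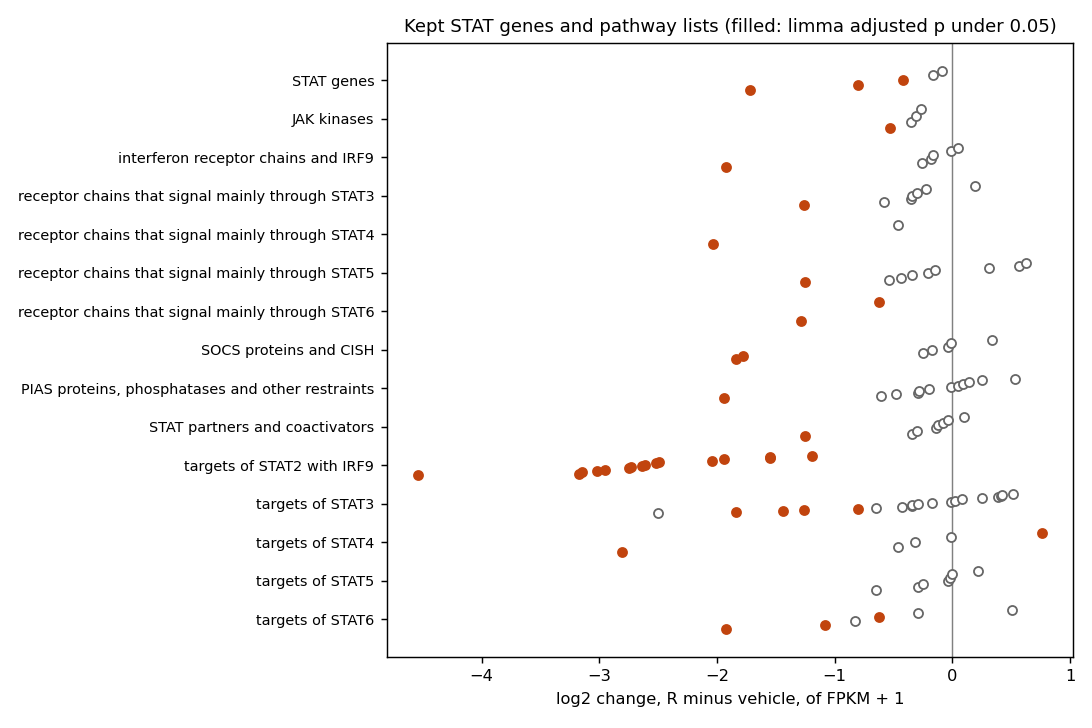
Log2 change (R minus vehicle, of FPKM + 1) of each kept STAT gene and of each kept member of the 14 pathway lists; a filled circle passed limma's adjusted p of 0.05, an open one did not, and a gene in 2 lists is drawn in both. All 16 kept targets of STAT2 with IRF9 lie left of -1, while the kept targets of STAT5 are all open.

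Of the feedback inhibitors, 2 of 7 kept SOCS genes fell, and they are those best known as restraints of interferon and IL-6 signalling. Socs1 had 0.838, 1.07 and 1.01 FPKM in R, against 6.1, 6.77 and 4.55 FPKM in vehicle, and Socs3 had 5.11, 6.81 and 8.02 FPKM in R, against 28.0, 26.0 and 24.4 FPKM in vehicle. The log2 changes were -1.78 and -1.84 (limma, adjusted p = 0.00094 and 0.00087). The others had changes from -0.25 for Socs2 to 0.34 for Socs5. Cish, a feedback gene of STAT5, was below the filter, with 0.186, 0.113 and 0.129 FPKM in R, against 0.858, 0.831 and 0.662 FPKM in vehicle, so that the groups did not overlap. Without a filter it was called lower (limma, adjusted p = 0.023). Of 12 kept PIAS proteins, phosphatases and other restraints 1 fell, Usp18, which dampens the type I interferon receptor, at 0.126 ± 0.0633 FPKM in R and 3.42 ± 1.14 FPKM in vehicle (SD, n = 3 each). Usp18 was under 1 FPKM in each R library and kept only through vehicle, so its direction is partly fixed by the filter. Ptpn6, a phosphatase of blood cells, had a change of -0.61 (limma, adjusted p = 0.053), and Pdlim2 and Ptpn1 had changes of 0.53 and -0.28 without passing.

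Target genes moved unequally by the STAT they are assigned to. Of 18 listed targets of STAT2 with IRF9, 16 were kept and all 16 fell, with a list median of -2.62. Rtp4, a receptor-transport chaperone, Oas3, a sensor of double-stranded RNA, Cmpk2, a mitochondrial nucleotide kinase, and Oasl2, an OAS-like antiviral protein, had the smallest p-values, with changes of -4.54, -2.95, -2.49 and -3.17. Cmpk2 had 0.121, 0.0267 and 0.0133 FPKM in R, against 5.22, 4.67 and 4.91 FPKM in vehicle. All 16 were called whichever library was left out. Rtp4, Cmpk2 and Oasl2, among others, were under 1 FPKM in each R library. They passed the filter only through vehicle, where they are high, so the count of 16 is partly fixed by the filter. Whether the listed assignment to 1 STAT holds in these cells was not tested.

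Of 19 kept targets of STAT3, 4 fell and 0 rose, with a list median of -0.29. Besides Socs3 and Osmr these were Saa3, an acute-phase protein, at 4.85 ± 0.491 FPKM in R and 15.9 ± 7.55 FPKM in vehicle, and Bcl3, a nuclear IkappaB protein, at 4.89 ± 1.19 FPKM in R and 9.09 ± 0.417 FPKM in vehicle (SD, n = 3 each). The count was 2 without R replicate 1 or vehicle replicate 2 and 5 without R replicate 2. Saa3 also lost its call without R replicate 2 or 3 and Bcl3 without R replicate 2 or vehicle replicate 1 or 3 (limma, adjusted p up to 0.098 and 0.11). Hp, haptoglobin, varied so widely (3.89, 31.2 and 9.85 FPKM in R, against 77.2, 114 and 33.6 FPKM in vehicle) that it did not pass (limma, adjusted p = 0.083). Myc, Vegfa and Cebpb, also in the list and named after their values were seen, had changes of -0.01, 0.02 and 0.08.

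Targets of the other STATs were fewer. Of 7 kept targets of STAT5, 0 passed limma's threshold. An unadjusted p under 0.05 was found for 2 of them, as for at least 2846 of the 11862 kept genes. Array weights gave 1 call among these targets, as did the replicate block. The fit without a filter called 1 listed target, Cish, which is not among the 7 kept. The median of the 7 was -0.04, with changes of -0.65 for the kinase Pim1, -0.29 for the survival gene Bcl2l1, 0.22 for Id1 and -0.25 for Socs2. Of 6 kept targets of STAT6, 3 fell: Tgm2, a transglutaminase, at 85.4 ± 16.6 FPKM in R and 181 ± 22.0 FPKM in vehicle, Clec10a, a macrophage lectin, at 0.931 ± 0.414 FPKM in R and 7.16 ± 5.1 FPKM in vehicle (SD, n = 3 each), and Il4ra. The mannose receptor Mrc1 had a change of -0.83 and did not pass. The call of Clec10a ended without R replicate 1, 2 or 3 or vehicle replicate 2 (limma, adjusted p up to 0.13), and the count was 1 without R replicate 1, 2 or 3 or vehicle replicate 2.

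Among the kept targets of STAT4, Gadd45g, a stress-induced gene, rose, at 131 ± 15.8 FPKM in R and 77.0 ± 14.3 FPKM in vehicle (SD, n = 3 each; limma, adjusted p = 0.036). The call of Gadd45g ended whichever library was left out (limma, adjusted p up to 0.1). Hlx and Il12rb2 had changes of -0.32 and -0.46 and did not pass. Ifng, the type II interferon, was below the filter, at 0.0355, 0 and 0 FPKM in R, against 0.317, 0.453 and 0.27 FPKM in vehicle, and without a filter it was called lower (limma, adjusted p = 0.04). Clec10a and Mrc1, described above, are also macrophage genes, and 4 of 14 macrophage markers fell in R; the part of those cells in these values was not tested.

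The genes most like each member across the 6 libraries were found by the root mean square difference of log2(FPKM + 1) profiles, each centred on its own mean. For Stat2 they were Slfn8, Slc2a6 and Dtx3l, with differences of 0.111, 0.112 and 0.113. Dtx3l, a ubiquitin ligase, had 3.55, 2.6 and 2.99 FPKM in R, against 16.1, 13.5 and 11 FPKM in vehicle, so that vehicle replicate 1 was the highest library, as for Stat2. For Stat3 they were Cd1d1, which presents lipids, the cytokine gene Tnf and the phosphatase gene Ptpn7 (0.0534, 0.0694 and 0.078). Tnf was at 25.2 ± 3.83 FPKM in R and 43.9 ± 1.16 FPKM in vehicle (SD, n = 3 each). For Stat5a they were Rab32, St3gal5 and Plod1 (0.0458, 0.0471 and 0.0495), for Stat5b Prdm15, Rbm33 and Smarcad1 (0.0175, 0.0203 and 0.0213), and for Stat6 Phf21a, Zfp467 and Depdc5 (0.0155, 0.0211 and 0.0217). Genes that change little all have small differences from one another, so those of Stat5b and Stat6 are less telling, and the likeness is a description over 6 libraries.

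**Figure D4:**
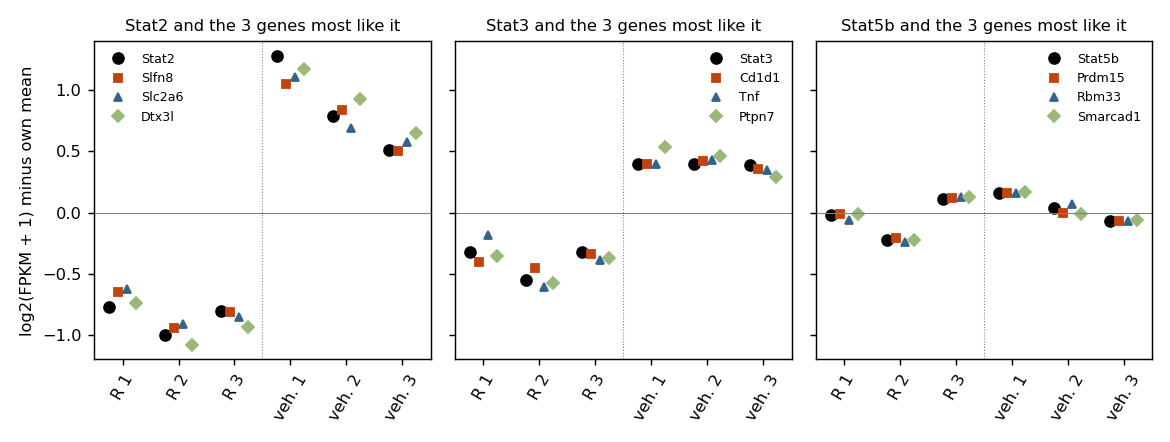
Log2(FPKM + 1) minus the gene's own mean over the 6 libraries, for Stat2, Stat3 and Stat5b and the 3 genes most like each; R libraries are left of the dotted line and vehicle (veh.) right. The values of Stat2 run from -1 to 1.28 and those of Stat3 from -0.55 to 0.40, while those of Stat5b stay between -0.22 and 0.16.

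The members lie in 4 places in the genome, and of 5 tested neighbours described here, 0 passed limma's threshold. An unadjusted p under 0.05 was found for 3 of them (Nab2, Cavin1 and Nemp1), as for at least 2846 of the 11862 kept genes. Stat3, Stat5a and Stat5b are side by side on chromosome 11, where Stat3 and Stat5a run toward each other and overlap by 72 bases at their ends; whether counting used strand is not stated, so reads there cannot be told apart. The next protein-coding genes on the far sides were Cavin1, which encodes a caveola coat protein, with a change of 0.91 that did not pass (limma, adjusted p = 0.058), and Ghdc, with 0.19. Beside Stat2, Apof was listed at 0 in each library and Il23a reached at most 0.0247 FPKM in R and 0.143 FPKM in vehicle. Nab2, a corepressor gene that overlaps the end of Stat6 by 40 bases on the other strand, had a change of 0.6 (limma, adjusted p = 0.053). Lrp1 and Nemp1, to either side, had changes of 0.1 and -0.45 and did not pass. Pseudogenes and non-coding genes nearer to Stat4, Stat5b and Stat6 had at most 0.136 FPKM in any library.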

How the data were processed

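RNA of 6 libraries of cultured marrow cells, labelled MSCs, was compared, 3 treated with R and 3 with vehicle, grouped by sample title. The authors deposited 1 table of FPKM values per gene, per the file headers. The submitters' processing notes name edgeR 3.18.1 and the build GRCm38 (mm10). Aligner, counter, annotation, strandedness and read length: not given in the sources used here. In all, 49328 genes were listed, 49302 of which matched GENCODE M21, and the last line was cut short. Some genes are not reported here.

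Depth was estimated from the deposited FPKM: multiplied by summed exon length, 98.3% to 98.4% of values under 20.5 reads came out as whole reads (within 0.02). Such read numbers carry counting error only and rest on the reference's exon lengths. Genes with at least 1 FPKM in at least 3 libraries were kept. A gene under 1 FPKM throughout 1 group could thus be kept through the other group alone, and its direction is then partly fixed by the filter. limma 3.58.1 in R 4.3.3 was fitted to log2(FPKM + 1) with a trend in the prior variance, without a replicate block, and p-values were adjusted over the 11862 kept genes. A pseudocount understates changes of low genes. Ratios between members were tested by exact permutation. Coding sequences were aligned with biopython 1.88. Promoters are from RefSeq (GRCm38.p6), where all 6 members matched.

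Named are, per list, the 4 kept genes of smallest p, and also every STAT gene, the 3 genes most like each kept member, the annotated neighbours and exceptions in a count. The members, lists and tests were chosen with earlier results of these data known. The list of STAT genes and the pathway lists are therefore not independent evidence. Alternatives were 2 other pseudocounts, 2 filters, 2 scalings, the block, no trend, array weights, limma's voom on estimated reads, and leaving out each library.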

Additional observations from a re-analysis of the deposited data

How the results depend on the processing

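Stat2 and Stat3 kept their direction and call in all 16 alternatives (changes -1.95 to -1.16 and -0.84 to -0.65), and Stat5b (-0.17 to 0) and Stat6 (-0.19 to -0.12) passed in none. Stat5a kept its direction in 16 (-0.48 to -0.26, and -0.45 to -0.39 when 1 library was left out) but lost its call without a filter (-0.42), with the replicate block (-0.42) and without each library other than vehicle replicate 3. The change of Stat4, -0.09 in the reported analysis, was -0.18 with a pseudocount of 0.5 and -0.02 with 5, by construction, since its values lie far below 1. The difference between Stat5b and Stat6 ranged from -0.01 (without R replicate 3) to 0.15 when 1 library was left out, and the other 9 differences kept their sign.

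The reported analysis called 809 genes (525 lower, 284 higher in R), a separate fit without a filter 344 (279 lower, 65 higher) and one with array weights 2460 (1346 lower, 1114 higher). Leaving out 1 library gave 337 to 879 called, 272 to 527 lower and 63 to 352 higher; the cause of the other shifts was not tested.

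Called members of the lists moved as follows. Array weights gave 3 JAK kinases, 2 genes of the interferon receptor and IRF9 list, 2 STAT3 and 3 STAT5 receptor chains, 2 PIAS and other restraints, 10 STAT3 targets and 1 STAT5 target. No filter gave 0 JAK kinases, 2 STAT5 and 1 STAT6 receptor chains, 2 STAT3 targets, 1 STAT5 target and 1 STAT6 target. The filter at a mean of 5 FPKM gave 0 JAK kinases, 0 STAT3, 0 STAT4 and 2 STAT5 receptor chains, 1 SOCS gene and 8 STAT2 targets, since fewer members were tested. The replicate block gave 0 JAK kinases, 2 STAT5 receptor chains, 3 restraints and 1 STAT5 target. A pseudocount of 5, equal medians and quantile normalization each gave 0 JAK kinases, equal medians 1 STAT6 receptor chain and quantile normalization 2 restraints. Without the trend there were 2 STAT5 and 1 STAT6 receptor chains, and voom gave 2 STAT5 receptor chains and 2 restraints. When 1 library was left out the counts ran from 0 to 1 for JAK kinases, 1 to 2 for STAT6 receptor chains, 1 to 2 for restraints, 2 to 5 for STAT3 targets, 1 to 1 for STAT4 targets and 1 to 3 for STAT6 targets.

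Whether equal replicate numbers pair the libraries is not stated in the labels, and correlations with 3 libraries per group cannot decide it. Deviations from the group means correlated across genes at 0.14, -0.01 and -0.03 for numbers 1, 2 and 3. R replicate 2 correlated best with vehicle replicate 3, also at 0.14. With the block, 756 genes were called. Depth limits Stat4 to at most 8 reads a library.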
